A study of Mus musculus with 12 samples.

Results

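The genes described here are 36 genes of fatty acid oxidation and ketone body metabolism, chosen by symbol from the 47729 genes of the deposited count table. All 36 symbols occurred exactly 1 time in that table. They fall into 8 roles: 6 genes of fatty acid uptake and activation, 4 of the carnitine shuttle, 7 acyl-CoA dehydrogenases and electron carriers, 4 of the later steps of mitochondrial β-oxidation, 5 isomerases and reductases for unsaturated chains, 5 peroxisomal genes, 2 enzymes of ketone bodies, and Ppara with 2 genes that are counted among its targets.

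RNA was sequenced from Lgr5-EGFPhi intestinal stem cells (ISCs) that flow cytometry had separated from crypts of the small intestine. The mice, of both sexes and 8 to 10 weeks old, were Lgr5-EGFP-IRES-CreERT2, and every group carried that allele, in which the Lgr5 locus drives EGFP and the inducible Cre. The 4 groups had 3 libraries each. They were Ctrl (untreated, numbers 1, 2 and 3), stress (restrained for 3 h on 1 day, numbers 1+2, 3 and 4+5+6), vehicle (injected intraperitoneally with the cyclodextrin solution on 1 day, numbers 3, 5 and 6) and CORT (given corticosterone dissolved in it, 5 mg/kg, numbers 2, 4 and 5). The stress titles that join several numbers read as pools of mice, and the sex behind each library was not given. Values of a group are listed below in the order of these numbers. By the methods, control mice went without food and water for as long as the restrained mice. The methods do not say this of the vehicle or CORT mice, so a difference in feeding cannot be told apart from the injection. Nothing in the labels says on which day a library was made, so that a day or batch shared by the vehicle libraries and the injection itself cannot be told apart. The labels do not say outright that the libraries of a group came from separate mice, and the p-values measure only the spread between these libraries.

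Fatty acids are taken up, joined to coenzyme A by acyl-CoA synthetases, and carried into mitochondria as carnitine esters. There each round of β-oxidation removes an acetyl unit in 4 reactions, with electrons passed on through the electron transfer flavoprotein. Peroxisomes shorten very long chains, and ketone bodies are made from and returned to acetyl-CoA. PPARα, encoded by Ppara, is the nuclear receptor best known for raising these genes during fasting in liver, and PPAR-driven fatty acid oxidation is also known in ISCs.

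Because many of these genes are known PPAR targets, their promoters were searched for the direct repeat that PPAR binds together with its partner RXR (AGGTCA, 1 base of any kind, AGGTCA, on both strands). RefSeq windows of 300 bases (250 before to 50 after an annotated start, build GRCm38.p6) were found for 29 of the 36 genes, as 31 windows. The complete repeat was in 0 of the 29 and in 0.0481% of all 27025 genes with a window, and with the 4th base of each AGGTCA free it was in 0 of the 29 and 0.451% of all. The palindrome bound by the glucocorticoid receptor (AGAACA, any 3 bases, TGTTCT) was likewise in 0 of the 29 and in 0.0111% of all, and with the 2nd base of AGAACA and the 5th of TGTTCT free in 0 of the 29 and 0.074% of all. With up to 2 mismatches, a limit chosen after the windows had been read, the direct repeat was in 3 of the 29 (4.4% of all genes). These 3 sites are shown because they are the closest to the repeat among the 29 genes, with matching bases in capitals and the spacer and mismatches in lower case, each read on the strand that matched. A match is a run of letters and not a measured binding site.
Cd36 (chr5:17835947-17835959, plus strand, the gene lying on the minus strand): AaGTCAgAGGcCA
Etfa (chr9:55512308-55512320, plus strand, the gene lying on the minus strand): AGGgCAaAGGTaA
Slc25a20 (chr9:108662142-108662154, plus strand, the strand of the gene): AGGTgAaAGGTCg

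Hadha and Hadhb, 2 genes on which the results below turn, encode the α and β subunits of the mitochondrial trifunctional protein and lie head to head on chromosome 5. Their annotated RefSeq starts, at 30154980 on the minus strand and 30155253 on the plus strand, have 272 bases between them, so that their windows share 228 of 300 bases. The Hadhb window is shown for that reason (chr5:30155003-30155302, plus strand, GRCm38.p6), with the bases that also belong to the Hadha window in capitals.
Hadhb: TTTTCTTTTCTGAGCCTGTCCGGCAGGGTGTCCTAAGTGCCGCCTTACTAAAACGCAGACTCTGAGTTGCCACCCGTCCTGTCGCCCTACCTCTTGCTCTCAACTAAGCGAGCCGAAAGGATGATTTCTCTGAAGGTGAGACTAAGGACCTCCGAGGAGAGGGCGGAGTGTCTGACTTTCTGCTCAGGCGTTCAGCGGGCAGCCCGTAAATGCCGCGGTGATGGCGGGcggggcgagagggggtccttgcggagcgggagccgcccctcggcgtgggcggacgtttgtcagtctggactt

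Library totals were 15934907 to 17135770 estimated counts in the Ctrl and stress groups, 16465961 to 31280267 in vehicle and 29426183 to 69533214 in CORT. Levels below are CPM, estimated counts scaled to the size of each library with TMM factors over the 12 libraries. The stem cell markers were present throughout, the 6 of them summing to 10680 to 13940 CPM, but not level. Lgr5, the gene of the reporter, was at 224, 206 and 245 CPM in Ctrl, 248, 173 and 216 in stress, 210.2, 194 and 194 in vehicle, with CORT at 128, 159 and 159, and was lower in CORT than in vehicle (edgeR, log2FC -0.43, adjusted p = 0.0277). Ascl2, a stem cell transcription factor, was lower in stress than in Ctrl (log2FC -1.23, adjusted p = 0.000336) and in CORT than in vehicle (log2FC -0.998, adjusted p = 0.0114), as was Smoc2 in CORT (log2FC -0.31, adjusted p = 0.0474). The summed level of 8 enterocyte markers, none of them at 0, was 449.6, 436 and 440.3 CPM in Ctrl, 1223, 558 and 2248 in stress, 664, 473 and 534 in vehicle, with CORT at 554, 553 and 470.2. Stress 4+5+6 and stress 1+2 thus stood above all other libraries in this sum, and stress 3 did not. In 5 of the 8 markers, however, every stress library lay above every Ctrl library. Sis, for example, was at 47.2 CPM in stress 3 and at 22.2, 19.1 and 26.6 CPM in Ctrl. By edgeR 5 of the 8 markers passed as higher in stress, and 0 of 8 passed in either of the other comparisons. At an unadjusted p under 0.05, 1 of the 8 was higher in CORT than in vehicle, and 2 were higher and 4 lower in vehicle than in Ctrl. The 6 blood markers summed to 2.07 to 6.61 CPM and the 6 stromal and endothelial markers to 0 to 3.24 CPM. The 6 Paneth cell markers summed to 173, 136 and 158 CPM in Ctrl, 263, 169 and 248 in stress, 186, 199 and 211 in vehicle, with CORT at 104, 116 and 104. Of these, 1 passed as higher in stress and in vehicle than in Ctrl (Mmp7, log2FC 0.87, adjusted p = 0.0285 and log2FC 2.04, adjusted p = 0.000183) and 4 passed as lower in CORT than in vehicle (Mmp7, Defa24, Defa17 and Itln1). In vehicle against Ctrl the other 5 had fold changes below 0, with 2 of them at an unadjusted p under 0.05. The goblet cell gene Clca1 was higher in stress (log2FC 1.59, adjusted p = 0.0392), the tuft cell gene Pou2f3 was lower in CORT (log2FC -1.14, adjusted p = 0.0317), and the endothelial gene Pecam1, at most 3.24 CPM in any library, was higher in CORT (log2FC 2.12, adjusted p = 0.0427). In sorted bulk RNA, fewer cells of a type and less RNA per cell cannot be told apart.

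The 36 genes together took 4284 to 4598 CPM in Ctrl, 4529 to 5649 CPM in stress, 4766 to 5681 CPM in vehicle and 5057 to 5162 CPM in CORT. The sums of the CORT libraries and of the vehicle libraries all lay above the highest Ctrl sum, while 1 of the 3 stress sums lay below it. Per length, in FPKM averaged over the 3 Ctrl libraries, Hadh was the highest at 198 ± 1.37 (SD), followed by Etfa at 140.5 ± 8.31 and Acaa2 at 118 ± 8.27. Etfb at 113 ± 3.28 and Ech1 at 100.5 ± 10.9 came next, and neither Acaa2 and Etfb nor Etfb and Ech1 were farther apart than their SDs added together. At the other end, Ppara was at 4.84 ± 1.11 FPKM, Vnn1 at 2.495 ± 0.506 and Acaa1b at 1.62 ± 0.316. Cd36 and Cyp4a10 were near the limit of detection. Cd36 had 0 to 13 counts in the Ctrl libraries and Cyp4a10 0 to 4, where 12 counts, or 3 read pairs, were taken as the floor. Among the 36 genes, RNA of several genes of mitochondrial oxidation was thus the highest per length in Ctrl ISCs. RNA of the membrane transporter CD36 and of the ω-hydroxylase Cyp4a10 was barely detected.

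**Figure D1:**
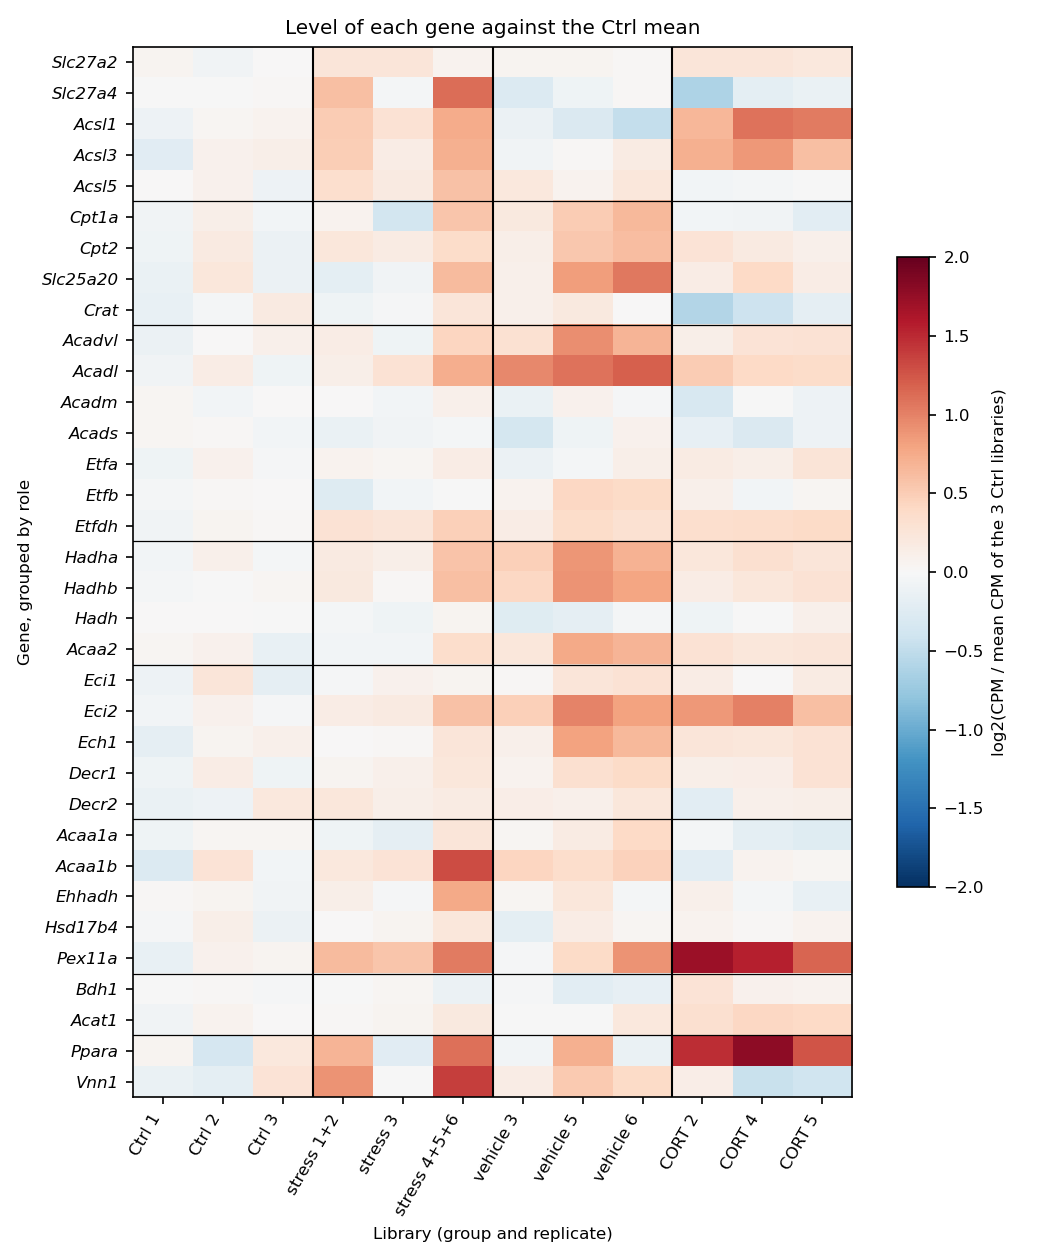
Level of 34 of the 36 genes (rows, grouped by role) in each of the 12 libraries (columns), as the log2 ratio of CPM to the mean of the 3 Ctrl libraries; Cd36 and Cyp4a10 are left out because of their low counts. Red columns of mitochondrial genes stand in vehicle 5 and vehicle 6, Acadl is red in all 3 vehicle libraries, and Pex11a, Ppara, Acsl1 and Acsl3 are red in all 3 CORT libraries.

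The vehicle injection was compared with no injection to see the background against which corticosterone was measured. Of 35 genes tested, 5 were higher in vehicle than in Ctrl and 0 lower: Acadvl, Acadl, Hadha, Hadhb and Eci2, all enzymes of β-oxidation. Over all 13642 genes tested, 0.447% passed as higher and 0.352% as lower. The median log2 fold change (log2FC) of the 35 genes was 0.23, with 28 above 0, against 0.002 and 50.3% above 0 for all genes. At an unadjusted p under 0.05, 15 genes were higher and 1 was lower, and DESeq2 called 10 higher and 0 lower, adding Cpt1a, Cpt2, Slc25a20, Acaa2 and Ech1. Over all genes, 1512 of 13642 had an unadjusted p under 0.05 in either direction. DESeq2 called 171 higher and 126 lower of the 13094 it tested. In 11 of the 36 genes (Cyp4a10 included, which was not tested) every vehicle library lay above every Ctrl library, and in 2 every one lay below, against 7.96% and 8.10% of all genes. The number of genes that passed depended on single libraries: it was 10 without vehicle 3, 1 without Ctrl 1 or Ctrl 3, 2 without vehicle 6 and 3 without Ctrl 2. Over all genes the number higher also moved, from 61 to 94 without vehicle 3, 13 without Ctrl 1 and 28 without Ctrl 3. It was 30 without vehicle 6 and 23 without Ctrl 2.

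Corticosterone was compared with vehicle, both groups having been injected. The CORT libraries were deeper (median 59689732 estimated counts against 16889139), and no label gives their day or batch. Differences in depth or batch cannot be told apart from the hormone here. Of 36 genes tested, 4 were higher in CORT (Acsl1, Acsl3, Pex11a and Ppara) and 4 were lower (Cpt1a, Acadl, Hadha and Hadhb), so 2 acyl-CoA synthetases, Pex11a and Ppara moved opposite to the enzyme of carnitine entry and 3 genes of mitochondrial oxidation. Acsl1, Pex11a and Ppara were also past a 2-fold change. DESeq2 called 6 higher and 7 lower, adding Acat1 and Bdh1 to the higher genes and Crat, Acadvl and Acaa1a to the lower ones. Over the 13213 genes that DESeq2 tested, 823 were called higher and 965 lower. By edgeR the share over all 14656 genes was 3.64% higher and 4.5% lower. The median log2 fold change was -0.13 for the 36 genes, with 13 above 0 and 23 below, and 0.01 for all genes. Every CORT library was above every vehicle library in 8 genes and below in 10, against 14.4% and 14.6% of all genes. The 4 lower genes became 11 without vehicle 3, 1 without vehicle 5 or CORT 4, and 2 without vehicle 6, CORT 2 or CORT 5, while the higher genes stayed between 3 and 5 in number. Over all genes the number lower went from 659 to 526 without vehicle 3, 409 without vehicle 5 and 269 without CORT 4. It was 429 without vehicle 6, 402 without CORT 2 and 355 without CORT 5. The Paneth cell markers were likewise highest in sum in vehicle against Ctrl and CORT. Against Ctrl, however, only Mmp7 of the 6 had a fold change above 0, and 5 were below 0. Of the 6 stem cell markers, Lgr5, Ascl2 and Smoc2 were lower in CORT, and Slc12a2 and Axin2 did not pass. Olfm4 did not pass either, with every CORT library above every vehicle library (9105, 7682 and 7813 against 7620, 6884 and 7632 CPM). The part of these markers in either result was not tested. This comparison and the one before share the vehicle libraries, so a high vehicle value raises one and lowers the other, and their values are given side by side only.

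**Figure D2:**
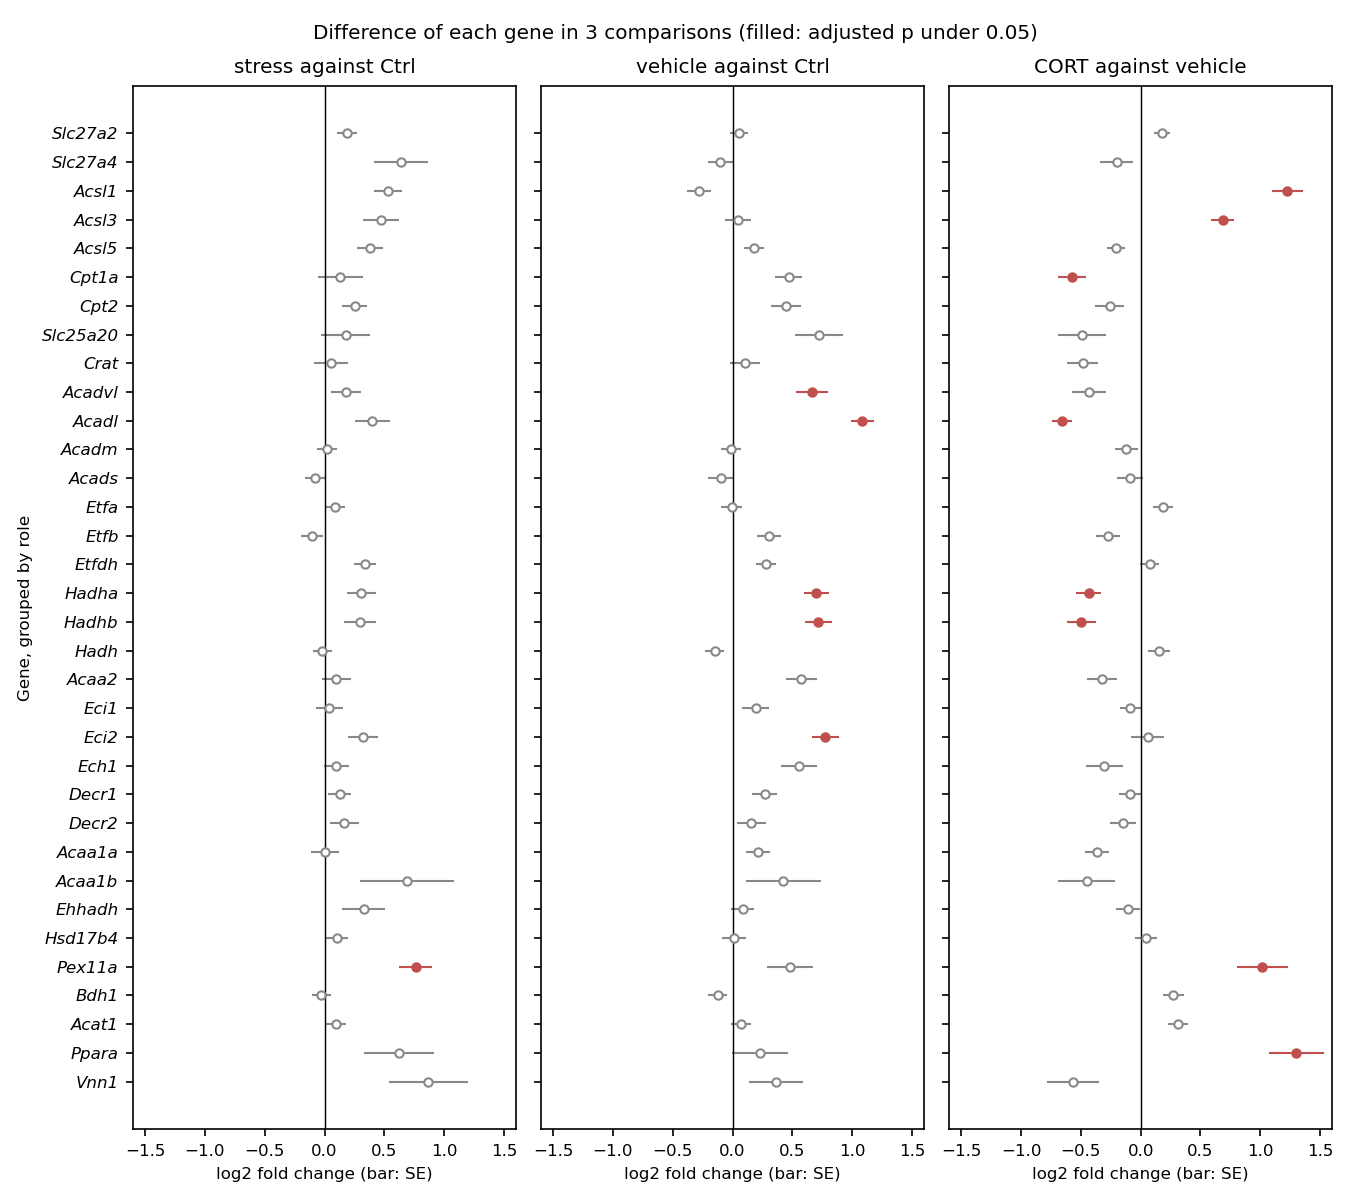
Log2 fold change (x axis) of 34 genes (y axis, grouped by role) in stress against Ctrl, vehicle against Ctrl and CORT against vehicle, with bars of 1 SE; filled red points passed an adjusted p of 0.05. Stress against Ctrl has 1 filled point (Pex11a), vehicle against Ctrl has 5, all to the right of 0, and CORT against vehicle has 4 on each side.

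Restraint was compared with Ctrl to see the response to a single exposure. Of 35 genes tested, 1 was higher in stress than in Ctrl (Pex11a) and 0 were lower, against 1.3% higher and 0.59% lower of all 13722 genes. Although 31 of the 35 fold changes were above 0 (median 0.18, against -0.003 and 49.5% above 0 for all genes), 34 of them did not pass. At an unadjusted p under 0.05, 12 genes were higher and 0 lower, and DESeq2 called 4 higher and 0 lower, adding Acsl1, Acsl5 and Etfdh. Over all genes, 2083 of 13722 had an unadjusted p under 0.05 in either direction. DESeq2 called 373 higher and 184 lower of the 14311 it tested. In 8 genes every stress library lay above every Ctrl library and in 0 below, against 10.1% and 9.91% of all genes. Without stress 3 the number higher was 8, and without any 1 of the other 5 libraries it was 0. Over all genes the number higher went from 179 to 560 without stress 3, and to 42 to 80 without any 1 of the others. Stress 4+5+6 was the highest stress library in 31 of the 36 genes (86.1%, against 33.0% of all genes), and it was also the highest in the enterocyte markers. Their part in the result was not tested.

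Among the genes of uptake and activation, 2 long-chain acyl-CoA synthetases were higher in CORT. Acsl1 was at 118, 129.7 and 133 CPM in Ctrl, 179.8, 156 and 213 in stress, 117, 104 and 91.3 in vehicle, with CORT at 201, 269 and 261. The CORT libraries overlapped the stress libraries and lay above all Ctrl and vehicle libraries, and the vehicle libraries lay below all Ctrl libraries. CORT was 2.34-fold higher than vehicle (edgeR quasi-likelihood test, log2FC 1.22, SE 0.13, adjusted p = 0.000827), and this passed in all 14 alternatives. In stress the difference from Ctrl just missed the threshold (log2FC 0.53, SE 0.12, adjusted p = 0.0546), passing without stress 3 (adjusted p = 0.00492), by DESeq2, with at least 10 counts in every library and with all 12 libraries in the fit. Vehicle against Ctrl had a log2FC of -0.28 (adjusted p = 0.297). The exons of Acsl1 overlap those of Gm45244 on the opposite strand.

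Acsl3, a further synthetase, was at 51.8, 63.7 and 65.4 CPM in Ctrl, 84.9, 66.5 and 99.1 in stress, 57.4, 61.1 and 67.4 in vehicle, with CORT at 98.4, 110.1 and 91.3. All CORT libraries were above all Ctrl and vehicle libraries, and the lowest stress library was close to the highest Ctrl library. CORT was 1.61-fold higher than vehicle by edgeR (log2FC 0.68, SE 0.09, adjusted p = 0.00298), in all 14 alternatives. Stress against Ctrl had a log2FC of 0.47 with adjusted p = 0.156, and 0.0178 without stress 3. Acsl3 shares 244 exon bases with Utp14b on the same strand, and counts there could have been split. Acsl5, the synthetase of the intestinal epithelium, did not follow. It had every stress library above every Ctrl library (log2FC 0.38, adjusted p = 0.13) and every CORT library below every vehicle library (log2FC -0.21, adjusted p = 0.13), without passing in either, though it passed in stress without stress 3 (adjusted p = 0.02).

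No transport protein passed. Slc27a2, a fatty acid transport protein with synthetase activity, ranged from 158 to 197 CPM over all libraries, with log2 fold changes of 0.19 in stress, 0.05 in vehicle and 0.18 in CORT, none past the test. Slc27a4, the main transport protein of enterocytes, was at 69.5, 44.5 and 99.4 CPM in stress against 45.4, 45.5 and 46.6 in Ctrl, so 2 of the 3 stress libraries were high and the third was not (log2FC 0.64, adjusted p = 0.215, and 0.00495 without stress 3). Those 2 libraries, 1+2 and 4+5+6, also had the highest sums of enterocyte markers, though stress 3 was above every Ctrl library in 5 of the 8 markers. Cd36 had 43, 0 and 112 counts in stress, 8, 25 and 12 in vehicle and 55, 65 and 10 in CORT, and no difference passed. The 6 genes together came to 579, 600.2 and 591 CPM in Ctrl, 776, 679 and 879 in stress, 607, 583 and 598 in vehicle, with CORT at 709.8, 802 and 777. Stress and CORT libraries were all above Ctrl and vehicle libraries in this sum.

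**Figure D3:**
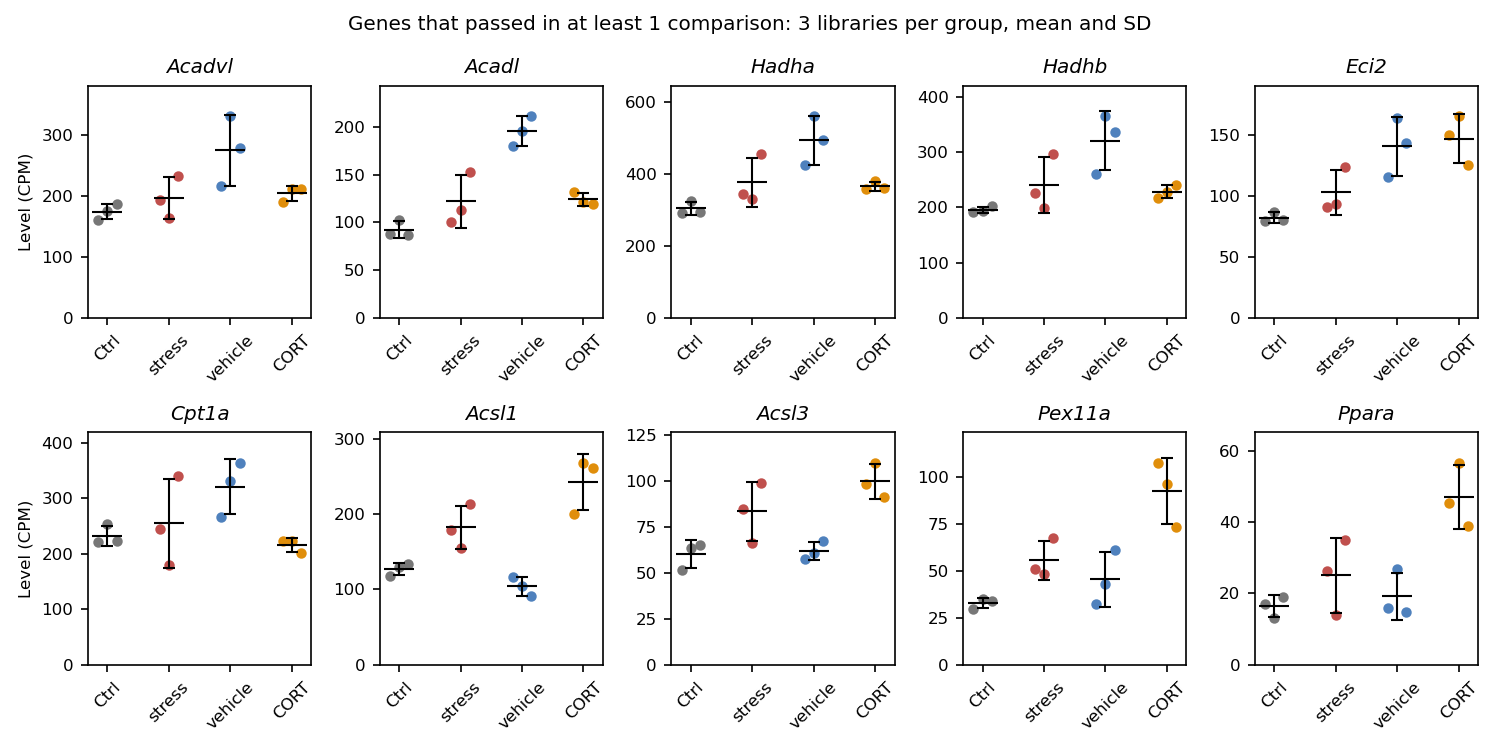
Level in CPM (y axis, from 0) of the 10 genes that passed in stress or vehicle against Ctrl or in CORT against vehicle, by group, with 3 libraries per group as points and the mean and SD in black. In the upper row the vehicle libraries lie above Ctrl, and in the lower row, apart from Cpt1a, the CORT libraries lie above vehicle.

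All 4 genes of the carnitine shuttle had a fold change below 0 in CORT against vehicle, and 1 passed. Cpt1a, the outer membrane carnitine palmitoyltransferase that sets the rate of entry, was at 221, 254 and 223 CPM in Ctrl, 245, 179.9 and 340.2 in stress, 267, 332 and 364 in vehicle, with CORT at 224, 223 and 202. The vehicle libraries lay above all Ctrl and all CORT libraries, and stress 3 was the lowest and stress 4+5+6 among the highest of the 12. CORT was 0.672 times the vehicle level by edgeR (log2FC -0.57, SE 0.11, adjusted p = 0.0156), with adjusted p of 0.0583 without vehicle 5, 0.0614 without CORT 4 and 0.0714 without CORT 5. Vehicle against Ctrl did not pass (log2FC 0.47, SE 0.11, adjusted p = 0.1) except by DESeq2 and without vehicle 3 (adjusted p = 0.0167).

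Slc25a20, which exchanges acylcarnitines for carnitine across the inner membrane, was at 37.5, 48.1 and 38.3 CPM in Ctrl and 44.1, 73.9 and 86.0 CPM in vehicle, where vehicle 3 lay within the Ctrl range and the others well above (log2FC 0.73, adjusted p = 0.153, and 0.00574 without vehicle 3). In CORT it was at 45.6, 54.5 and 45.8 CPM (log2FC -0.49, adjusted p = 0.185, and 0.0105 without vehicle 3). Cpt2, the inner membrane transferase, had a log2FC of 0.45 in vehicle against Ctrl (adjusted p = 0.175, and 0.0315 without vehicle 3) and -0.26 in CORT against vehicle (adjusted p = 0.24, and 0.0306 without vehicle 3). Crat, the carnitine acetyltransferase, had every CORT library below every vehicle library, at 20.6, 23.4 and 27.5 against 33.2, 35.4 and 31.0 CPM, and stood at the edge of the threshold (log2FC -0.48, SE 0.13, adjusted p = 0.053, and 0.0454 without CORT 5). The 4 shuttle genes summed to 368, 431 and 376 CPM in Ctrl, 411, 347 and 552 in stress, 438, 567 and 614 in vehicle, with CORT at 394, 399 and 369. The CORT sums were within the Ctrl range, and the vehicle sums were all above it.

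Of the acyl-CoA dehydrogenases, which carry out the opening step of each round, the enzymes for the longest chains differed and those for shorter chains did not pass. Acadl, the long-chain enzyme, was at 88.0, 102 and 86.8 CPM in Ctrl, 100.5, 112 and 153 in stress, 180, 196 and 211 in vehicle, with CORT at 132, 121 and 119.5. The groups were fully separated for vehicle, above all 9 other libraries, and the CORT libraries lay between Ctrl and vehicle. Vehicle was 2.12-fold higher than Ctrl (edgeR, log2FC 1.09, SE 0.09, adjusted p = 0.0004), in 13 of 14 alternatives. CORT was 0.634 times the vehicle level (log2FC -0.66, SE 0.08, adjusted p = 0.00199), in all 14 alternatives, and stress against Ctrl had a log2FC of 0.40 with adjusted p = 0.228.

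Acadvl, the very long-chain enzyme of the inner membrane, was at 161, 175 and 186 CPM in Ctrl, 193, 164 and 233 in stress, 215, 330.2 and 278 in vehicle, with CORT at 189, 211 and 211. Every vehicle library was above every Ctrl and CORT library. Vehicle against Ctrl passed narrowly (log2FC 0.66, SE 0.13, adjusted p = 0.0494) and no longer passed in 11 of 14 alternatives, with adjusted p of 0.287 without Ctrl 1, 0.161 without Ctrl 2, 0.116 without Ctrl 3, 0.0962 without vehicle 5 and 0.153 without vehicle 6. CORT against vehicle had a log2FC of -0.43 with adjusted p = 0.0957, and 0.0156 without vehicle 3. Acadvl shares 1151 exon bases with Dvl2 on the opposite strand, and the counting was not stated to use strand. Acadm and Acads, for medium and short chains, had log2 fold changes from -0.12 to 0.02 and from -0.10 to -0.08 over the 3 comparisons, with adjusted p of at least 0.513.

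Of the 3 genes of the electron carriers, 1 passed, in CORT against Ctrl. Etfa, a subunit of the electron transfer flavoprotein, ranged from 199 to 259 CPM over the 12 libraries and did not pass in any comparison. Etfb, the other subunit, had every vehicle library above every Ctrl library (log2FC 0.30, adjusted p = 0.224) and a log2FC of -0.27 in CORT against vehicle (adjusted p = 0.14, and 0.0352 without vehicle 3). Etfdh, which hands the electrons to ubiquinone, had every stress library and every vehicle library above every Ctrl library, at 105, 115 and 112 CPM in Ctrl, 136, 131 and 154 in stress and 123, 144 and 137 in vehicle, without passing (log2FC 0.34, adjusted p = 0.106 in stress and log2FC 0.28, adjusted p = 0.195 in vehicle). In CORT it was at 139, 142 and 144 CPM, again above every Ctrl library, and this difference from Ctrl passed by edgeR (log2FC 0.35, SE 0.06, adjusted p = 0.00917). Without stress 3 its stress difference passed (adjusted p = 0.0356).

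Both genes of the trifunctional protein, which carries out the later 3 reactions on long chains, were higher in vehicle than in Ctrl and lower in CORT than in vehicle. Hadha was at 293, 327 and 296 CPM in Ctrl, 344, 332 and 456 in stress, 426, 561 and 496 in vehicle, with CORT at 358, 380.3 and 362. The vehicle libraries lay above all Ctrl and CORT libraries, with vehicle 3 the lowest of the 3 and below stress 4+5+6. Vehicle was 1.62-fold above Ctrl by edgeR (log2FC 0.70, SE 0.10, adjusted p = 0.0115), with adjusted p of 0.113 without Ctrl 1 and 0.0689 without Ctrl 3, and CORT was 0.740 times vehicle (log2FC -0.43, SE 0.10, adjusted p = 0.0345), with adjusted p of 0.106 without vehicle 5, 0.0805 without vehicle 6, 0.0943 without CORT 2, 0.101 without CORT 4 and 0.125 without CORT 5.

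Hadhb was at 191, 194 and 202 CPM in Ctrl, 225, 199 and 297 in stress, 261, 365 and 337 in vehicle, with CORT at 216, 228 and 240. As with Hadha, the vehicle libraries were above all Ctrl and CORT libraries. Vehicle was 1.64-fold above Ctrl by edgeR (log2FC 0.72, SE 0.11, adjusted p = 0.0154), with adjusted p of 0.132 without Ctrl 1, 0.0813 without Ctrl 2, 0.0689 without Ctrl 3 and 0.0655 without vehicle 6. CORT was 0.709 times vehicle (log2FC -0.50, SE 0.12, adjusted p = 0.0343), with adjusted p of 0.109 without vehicle 5, 0.093 without vehicle 6, 0.102 without CORT 2, 0.122 without CORT 4 and 0.0827 without CORT 5. Both genes lie at the shared start region printed above. Their fold changes were within 1 SE of each other in all 3 comparisons, at 0.31 and 0.30 in stress, 0.70 and 0.72 in vehicle, and -0.43 and -0.50 in CORT.

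Acaa2, the mitochondrial thiolase, had the same order of groups without passing. It was at 205, 212 and 180.2 CPM in Ctrl against 232, 336 and 320.3 CPM in vehicle, and CORT was at 243, 233 and 235 CPM. All vehicle libraries were above all Ctrl libraries (log2FC 0.58, SE 0.13, adjusted p = 0.0743, and 0.00399 without vehicle 3), and vehicle 3 lay below the CORT libraries (log2FC -0.32, adjusted p = 0.163, and 0.0129 without vehicle 3). Hadh, the 3-hydroxyacyl-CoA dehydrogenase for shorter chains and the gene with the highest FPKM of the 36, went the other way. It had every vehicle library below every Ctrl library, at 333, 347 and 386 against 397, 396 and 391 CPM, a difference that did not pass (log2FC -0.15, adjusted p = 0.558). The 4 later-step genes summed to 1086, 1129 and 1069 CPM in Ctrl, 1148, 1095 and 1418 in stress, 1252, 1609 and 1539 in vehicle, with CORT at 1189, 1235 and 1261.

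**Figure D4:**
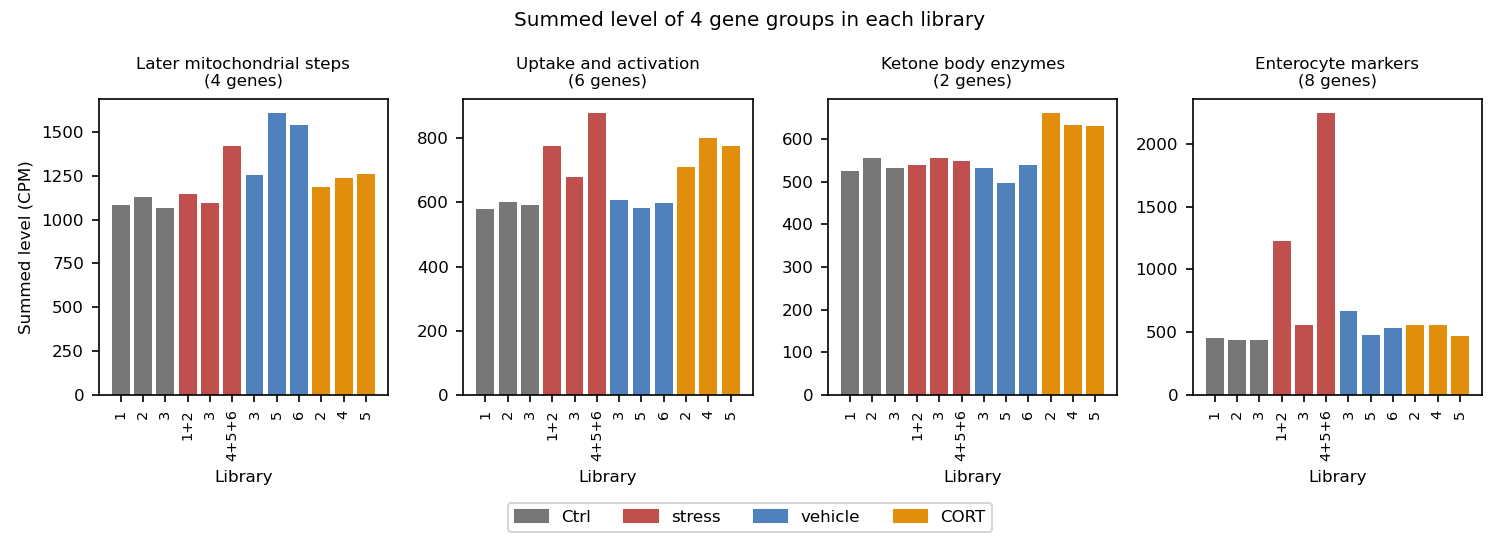
Summed CPM (y axis, from 0) of 3 groups of the genes and of 8 enterocyte markers in each of the 12 libraries (x axis, replicate numbers), coloured by group. Later mitochondrial steps are highest in vehicle 5 and vehicle 6, uptake and activation is higher in stress and CORT, the ketone body pair is highest in CORT, and the enterocyte markers are highest in stress 4+5+6 and stress 1+2.

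Unsaturated chains need isomerases and reductases before they can enter the cycle, and 1 of these 5 genes passed. Eci2, an enoyl-CoA isomerase of peroxisomes and mitochondria, was at 79.4, 87.3 and 80.8 CPM in Ctrl, 91.4, 93.6 and 124 in stress, 115, 164 and 144 in vehicle, with CORT at 150.3, 166 and 126. Every library of the stress, vehicle and CORT groups lay above every Ctrl library, and CORT and vehicle covered much the same range. Vehicle was 1.71-fold above Ctrl by edgeR (log2FC 0.78, SE 0.12, adjusted p = 0.0118), with adjusted p of 0.112 without Ctrl 1, 0.0689 without Ctrl 3 and 0.0539 without vehicle 6. CORT against vehicle had a log2FC of 0.06 with adjusted p = 0.847, with the groups overlapping. Its stress difference did not pass (log2FC 0.32, adjusted p = 0.242).

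Ech1, the dienoyl-CoA isomerase, was at 125, 147 and 151 CPM in Ctrl and 150.5, 246 and 221 CPM in vehicle (log2FC 0.55, adjusted p = 0.151, and 0.00711 without vehicle 3). In CORT it was at 166, 165 and 171 CPM (log2FC -0.30, adjusted p = 0.272, and 0.0139 without vehicle 3). Vehicle 3 was again at the level of the highest Ctrl library. Eci1 and the 2,4-dienoyl-CoA reductases Decr1 (mitochondrial) and Decr2 (peroxisomal) did not pass in any comparison, with log2 fold changes between -0.15 and 0.27.

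Of the peroxisomal genes, 1 passed, in both treatments. Pex11a, a membrane protein that elongates peroxisomes before they divide, was at 29.7, 34.8 and 33.9 CPM in Ctrl, 50.9, 48.2 and 67.3 in stress, 32.2, 43.0 and 61.0 in vehicle, with CORT at 108, 96.4 and 73.5. The lowest CORT library was above every other library of the series, and the stress libraries were all above the Ctrl libraries, while the vehicle libraries spread from the Ctrl range to the stress range. CORT was 2.02-fold above vehicle by edgeR (log2FC 1.02, SE 0.22, adjusted p = 0.0209), with adjusted p of 0.0781 without vehicle 5, 0.0644 without CORT 2 and 0.0775 without CORT 4. Stress was 1.69-fold above Ctrl (log2FC 0.76, SE 0.14, adjusted p = 0.0272), and this no longer passed in 10 of 14 alternatives, with adjusted p of 0.15 without Ctrl 1, 0.0984 without Ctrl 2, 0.113 without Ctrl 3, 0.0827 without stress 1+2 and 0.0688 without stress 4+5+6. Vehicle against Ctrl did not pass (log2FC 0.48, SE 0.19, adjusted p = 0.366).

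The enzymes of the peroxisomal cycle did not pass by edgeR. Acaa1a, a peroxisomal thiolase, had every CORT library below every vehicle library, at 161, 144 and 139.9 against 169, 185 and 216 CPM (log2FC -0.37, SE 0.10, adjusted p = 0.061, and 0.0398 without vehicle 3). Its near-identical copy Acaa1b was at 2.40 to 7.22 CPM, and counts could have been split between the copies. Ehhadh and Hsd17b4, the bifunctional enzymes, were at 0.33 and 0.10 on the log2 scale in stress, at 0.08 and 0.01 in vehicle, and at -0.11 and 0.05 in CORT against vehicle. Ehhadh was at 95.9 CPM in stress 4+5+6 and at 51.0 to 66.3 CPM in the other 11 libraries.

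The ketone body enzymes were higher in every CORT library than in every vehicle library, without passing by edgeR, while by DESeq2 both passed (adjusted p = 0.0229 for Bdh1 and 0.00459 for Acat1). Bdh1, which interconverts acetoacetate and β-hydroxybutyrate, was at 302, 308 and 296 CPM in Ctrl, 299, 309.6 and 279 in stress, 298, 262 and 269 in vehicle, with CORT at 366, 320.4 and 317. CORT also lay above all Ctrl and stress libraries, and the difference from vehicle did not pass (log2FC 0.27, SE 0.09, adjusted p = 0.1). Acat1, the acetoacetyl-CoA thiolase, was at 224, 248 and 236 CPM in Ctrl, 240.4, 246 and 269.9 in stress, 234, 236 and 272 in vehicle, with CORT at 295, 313 and 313. Here too the CORT libraries were the 3 highest of the 12 (log2FC 0.31, SE 0.08, adjusted p = 0.0545, and 0.0278 without vehicle 6). Stress and vehicle differences of both genes were within -0.12 to 0.10 on the log2 scale, with adjusted p of at least 0.641.

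Ppara itself was higher with corticosterone. It was at 17.0, 12.9 and 19.0 CPM in Ctrl, 26.2, 13.9 and 35.0 in stress, 15.8, 26.7 and 14.8 in vehicle, with CORT at 45.3, 56.6 and 39.0. The lowest CORT library was above every other library, and stress 3, vehicle 3 and vehicle 6 lay within the Ctrl range. CORT was 2.47-fold above vehicle by edgeR (log2FC 1.30, SE 0.23, adjusted p = 0.00916) and passed in 13 of 14 alternatives, among them each library left out. Stress against Ctrl had a log2FC of 0.62 with adjusted p = 0.355, and 0.0252 without stress 3. Vnn1, a pantetheinase known as a PPARα target, did not pass. It had every CORT library below every vehicle library, at 7.41, 4.96 and 5.09 against 7.49, 9.66 and 8.75 CPM (log2FC -0.57, adjusted p = 0.155), and was at 12.5, 6.67 and 17.6 CPM in stress (log2FC 0.87, adjusted p = 0.243, and 0.024 without stress 3). Cyp4a10 had 0 to 34 counts in all libraries.

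Because vehicle differed from Ctrl, CORT was also compared with Ctrl, a comparison added after the vehicle values had been seen. It shares its libraries with the other comparisons. Of 35 genes tested, 9 were higher in CORT than in Ctrl and 0 lower, against 4.09% higher and 4.32% lower of all 14268 genes, with a median log2 fold change of 0.18 (0.01 over all genes). At an unadjusted p under 0.05, 15 were higher and 3 lower, and by DESeq2 14 were higher and 0 lower. The share of all genes at these settings was not counted. The 9 were Acsl1, Acsl3, Acadl, Etfdh, Hadha, Eci2, Pex11a, Acat1 and Ppara. Pex11a (log2FC 1.498, SE 0.14, adjusted p = 0.00029), Ppara (log2FC 1.53, SE 0.17, adjusted p = 0.000762) and Acsl1 (log2FC 0.94, SE 0.11, adjusted p = 0.000955) had the 3 smallest adjusted p. Of the 4 genes that were lower in CORT than in vehicle, Acadl (log2FC 0.43, SE 0.08, adjusted p = 0.012) and Hadha (log2FC 0.26, SE 0.07, adjusted p = 0.0488) were higher in CORT than in Ctrl. Hadhb (log2FC 0.22, SE 0.07, adjusted p = 0.0806) and Cpt1a (log2FC -0.11, SE 0.08, adjusted p = 0.48) did not pass. Hadha no longer passed without Ctrl 1, Ctrl 3 or any 1 of the CORT libraries, with adjusted p of 0.0586 to 0.166, and Acadl without Ctrl 1 (adjusted p = 0.0672).

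The response to restraint and to corticosterone was compared directly as an interaction (stress against Ctrl minus CORT against vehicle, all 12 libraries). In this test 1 of 36 genes passed as higher and 0 as lower, against 0.194% in each direction of all 14415 genes. The gene was Acadl (log2FC 1.05, SE 0.18, adjusted p = 0.0294), with a log2FC of 0.40 in stress against Ctrl and -0.66 in CORT against vehicle. Taken against Ctrl, CORT had a log2FC of 0.43 for Acadl and vehicle had 1.09. At an unadjusted p under 0.05, 15 genes were higher and 2 lower, and DESeq2 called 5 higher and 1 lower. Over all genes, 1798 of 14415 had an unadjusted p under 0.05 in either direction. DESeq2 called 258 higher and 128 lower of the 15138 it tested. The next genes, Hadha (log2FC 0.74, adjusted p = 0.0863), Acsl5 (log2FC 0.58, adjusted p = 0.089) and Hadhb (log2FC 0.79, adjusted p = 0.0946), did not pass. Without stress 3 the number was 7, and without vehicle 3 it was 2. Over all genes the number higher went from 28 to 183 without stress 3 and to 43 without vehicle 3. For Acadl the adjusted p was 0.0856 without Ctrl 1, 0.0521 without Ctrl 2, 0.078 without Ctrl 3, 0.0677 without vehicle 5, 0.0779 without vehicle 6, 0.0518 without CORT 2, 0.0941 without CORT 4 and 0.0688 without CORT 5. For Acsl1 the difference pointed the other way and did not pass (log2FC -0.70, adjusted p = 0.118), and for Pex11a it had a log2FC of -0.26 with adjusted p = 0.772. Both groups of controls enter this test, so the high vehicle values are part of it.

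Within a group, the same library was often the lowest over these genes. Vehicle 3 was the lowest vehicle library in 26 of the 36 genes (72.2%, against 34.3% of all 14415 genes), and stress 3 was the lowest stress library in 21 (58.3%, against 36.5%). Ctrl 1 was the lowest of its group in 20 (55.6%, against 30.5%), and among the CORT libraries the lowest place was spread over 16, 8 and 12 genes. Many of these genes therefore share the same spread between libraries, and they are not independent replicates of a condition.

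Other genes of the same pathways were looked at as a list of 39 further genes of fatty acid handling and ketone use. In stress, 2 of 34 tested were higher and 0 lower, in vehicle 3 of 33 higher and 0 lower, and in CORT 2 of 34 higher and 2 lower. Of all genes, 1.3% passed as higher and 0.59% as lower in stress, and 0.447% and 0.352% in vehicle. In CORT against vehicle these shares were 3.64% and 4.5%. The medians were 0.12, 0.02 and 0.15 on the log2 scale, against -0.003, 0.002 and 0.01 for all genes. At an unadjusted p under 0.05, 0 genes were lower in stress and 5 in vehicle. Slc22a5, the carnitine transporter of the cell membrane, was higher in stress (log2FC 0.61, SE 0.11, adjusted p = 0.0206) and in CORT (log2FC 1.10, SE 0.14, adjusted p = 0.00212), at 42.1, 41.3 and 38.2 CPM in Ctrl, 59.6, 56.8 and 68.7 in stress, 32.2, 44.9 and 37.6 in vehicle, with CORT at 82.5, 95.02 and 69.7. Its groups did not overlap in either comparison.

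Fabp1, the liver-type fatty acid binding protein and an enterocyte product, was at 9.06, 8.61 and 10.9 CPM in Ctrl, 54.8, 32.8 and 212 in stress, 20.7, 57.1 and 29.9 in vehicle, with CORT at 9.82, 19.4 and 15.7. It was higher in stress (log2FC 3.39, SE 0.60, adjusted p = 0.0221) and in vehicle (log2FC 1.92, SE 0.31, adjusted p = 0.0183) than in Ctrl, with its highest value in stress 4+5+6, the library highest in enterocyte markers. It was also the 1 gene of 36 tested in this list that passed the interaction (log2FC 4.65, adjusted p = 0.0294), and 0 passed as lower, with 3 lower at an unadjusted p under 0.05. Acacb, whose product malonyl-CoA blocks CPT1, was at 7.19, 12.0 and 10.3 CPM in Ctrl, 7.90, 12.7 and 15.7 in stress, 18.4, 47.1 and 37.6 in vehicle, with CORT at 8.77, 11.1 and 9.08. It was higher in vehicle than in Ctrl (log2FC 1.81, SE 0.30, adjusted p = 0.0208) and lower in CORT than in vehicle (log2FC -1.83, SE 0.29, adjusted p = 0.00607), with the CORT libraries within the Ctrl range. Slc27a1, a further transport protein, was higher in vehicle than in Ctrl (log2FC 0.63, SE 0.12, adjusted p = 0.0428).

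Slc16a1, the monocarboxylate carrier that moves ketone bodies and lactate, was lower in CORT than in vehicle (log2FC -0.44, SE 0.07, adjusted p = 0.00626). Fabp2, the intestinal fatty acid binding protein, was higher (log2FC 0.46, SE 0.10, adjusted p = 0.0251), and Oxct1, the enzyme that starts ketone body use, did not pass (log2FC 0.32, adjusted p = 0.0554). By size of p, the next genes in stress were Crot (log2FC 0.38, adjusted p = 0.149), Acad11 (log2FC 0.45, adjusted p = 0.209) and Fabp2 (log2FC 0.87, adjusted p = 0.243). In vehicle they were Fabp2 (log2FC -0.48, adjusted p = 0.144) and Oxct1 (log2FC -0.35, adjusted p = 0.145).

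A second list held 20 genes, of which 15 were tested. It was made of regulators of the PPAR family, further PPARα targets, and Txnip and Klf10. The counts that follow include Txnip (higher in stress and in CORT) and Klf10 (lower in CORT), and a link of either to PPARα was not tested. In stress 4 were higher and 0 lower (edgeR, with 2 lower at an unadjusted p under 0.05), in vehicle 3 higher and 1 lower, and in CORT 5 higher and 4 lower. The medians were 0.14, 0.01 and 0.05, against -0.003, 0.002 and 0.01 for all genes. Of all genes, 1.3% passed as higher and 0.59% as lower in stress, and 0.447% and 0.352% in vehicle. In CORT against vehicle these shares were 3.64% and 4.5%. Pdk4, the kinase that shuts pyruvate out of the citric acid cycle, was at 0.936, 1.85 and 1.58 CPM in Ctrl, 91.1, 38.2 and 98.1 in stress, 9.63, 9.19 and 8.88 in vehicle, with CORT at 206, 185 and 83.4. It was higher in stress (log2FC 5.70, SE 0.41, adjusted p = 0.000119), in vehicle (log2FC 2.66, SE 0.30, adjusted p = 0.00339) and, over vehicle, in CORT (log2FC 4.10, SE 0.31, adjusted p = 0.000185). Angptl4, a secreted inhibitor of lipoprotein lipase, was at 6.20, 4.61 and 6.04 CPM in Ctrl, 80.0, 74.0 and 97.2 in stress, 13.4, 20.6 and 22.5 in vehicle, with CORT at 159, 139 and 95.5. It was likewise higher in stress (log2FC 3.90, SE 0.16, adjusted p = 3.98e-06), in vehicle (log2FC 1.75, SE 0.23, adjusted p = 0.00661) and in CORT over vehicle (log2FC 2.79, SE 0.22, adjusted p = 0.000251). Each of these differences was larger than any that passed among the 36 genes.

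Ppargc1a, the coactivator of PPARα and of mitochondrial genes, was higher in stress (log2FC 1.13, adjusted p = 0.0149) and in CORT (log2FC 1.47, adjusted p = 0.00117), at 14.4, 13.9 and 11.5 CPM in Ctrl, 27.2, 24.3 and 35.4 in stress, 8.92, 13.6 and 10.9 in vehicle, with CORT at 31.9, 33.2 and 27.6. Its relative Ppargc1b was lower in CORT (log2FC -0.59, adjusted p = 0.0297). Rxra, the partner receptor of PPARα, was slightly higher in CORT (log2FC 0.37, adjusted p = 0.011), and Ppard, a further PPAR, was lower in vehicle than in Ctrl (log2FC -0.56, adjusted p = 0.0102). Creb3l3, a fasting factor of liver and gut, was at 7.66, 8.19 and 7.07 CPM in Ctrl, 26.4, 10.7 and 73.1 in stress, 20.3, 47.4 and 47.0 in vehicle, with CORT at 17.5, 19.8 and 14.7. It was higher in vehicle than in Ctrl (log2FC 2.33, adjusted p = 0.00467) and lower in CORT than in vehicle (log2FC -1.14, adjusted p = 0.0381), and in stress it had a log2FC of 2.27 with adjusted p = 0.0715. Txnip, an α-arrestin that lowers glucose uptake, was higher in stress (log2FC 1.31, adjusted p = 0.000228) and in CORT (log2FC 1.17, adjusted p = 0.0141). Plin2, which coats lipid droplets (log2FC -0.51, adjusted p = 0.0315), and Klf10 (log2FC -1.12, adjusted p = 0.0139) were lower in CORT, and Klf10 did not pass in vehicle against Ctrl (log2FC 0.59, adjusted p = 0.14).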

How the data were processed

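RNA of 12 libraries of sorted ISCs (4 groups, 3 libraries each) was analysed, grouped by the treatment in the labels. The authors' methods name HISAT2 and featureCounts, and their processing notes name HISAT2 2.2.1, StringTie 2.2.1 and mm10. The authors deposited estimated counts per gene, which held about 75 covered bases per count in every library (medians 74.95 to 74.98), and were tested as whole numbers. They also deposited FPKM, used for levels per length and as an alternative, and coverage, a signal that served to work out what 1 count holds. Overlapping and near-identical genes can share counts.

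The test was edgeR 4.0.16 (quasi-likelihood, TMM, filterByExpr, Benjamini-Hochberg over all genes tested) in R 4.3.3, on the 6 libraries of a comparison or, for the interaction, on all 12. A gene passed at an adjusted p under 0.05. The SE is the absolute log2 fold change divided by the square root of F. The script was tested on simulated data. DESeq2 1.42.0, limma 3.58.1 on log2(FPKM + 1), other filters and leaving out each library were alternatives. The genes and lists were chosen with earlier results of these data known. Each gene that passed is given in every library, the others by range or example, and of the 2 further lists the genes that passed or had the 5 smallest adjusted p. Gene positions follow the mouse GENCODE release M21 where spans match (28 of 36). Of the lists, 2 genes are not reported here. No proteins were used.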

Additional observations from a re-analysis of the deposited data

Results flagged for a closer look

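Acadl was the gene of the 36 that passed the test of restraint against corticosterone, each taken against its own control (edgeR interaction over 12 libraries, log2 difference 1.05, SE 0.18, adjusted p = 0.0294). Its log2 fold change was 0.40 in stress against Ctrl and -0.66 in CORT against vehicle, and the vehicle libraries, at 180, 196 and 211 CPM, were the highest of the series. In CORT against Ctrl it was 0.43, near the 0.40 of stress, and in vehicle against Ctrl it was 1.09. The interaction no longer passed in 11 of 19 alternatives, among which the adjusted p ranged from 2.03e-05 to 0.119.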

How the results depend on the processing

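No paired analysis was possible because the groups compared share at most 1 replicate number that stands for a single library in both, numbers 1 and 2 of stress being joined in 1 library. Over the alternatives, the 287 values of the 24 single results that had passed, CORT against Ctrl included, kept their direction (287 of 287), and of 2429 values of single genes, 78 lost and 66 gained the threshold. The alternatives reuse the same libraries, so a kept direction is no independent support for a result. The number of genes higher in stress than in Ctrl (1) was 4 by DESeq2, 2 with at least 10 counts in every library, 3 with all 12 libraries in the fit, and 0 with no filter or by limma on FPKM at either pseudocount or with no filter. Over all genes these settings, in that order, called 373, 218, 309, 35, 61, 59 and 17 higher, against 179 in the main test. In CORT against vehicle (4 higher, 4 lower), DESeq2 called 6 higher and 7 lower and limma on FPKM with no filter 2 higher and 1 lower. Over all genes DESeq2 called 823 higher and 965 lower, and limma with no filter 215 and 346. The main test called 533 and 659. In vehicle against Ctrl (5 higher), DESeq2 called 10, limma on FPKM 2 at either pseudocount and 0 with no filter. Over all genes these settings, in that order, called 171, 23, 22 and 0 higher, against 61 in the main test. For the interaction (1 higher, 0 lower), DESeq2 called 5 higher and 1 lower and limma 0. Over all genes DESeq2 called 258 higher and 128 lower, against 28 in each direction in the main test. Limma called 14, 14 and 9 higher and 11, 10 and 8 lower, at pseudocounts of 1 and 0.1 and with no filter. In CORT against Ctrl (9 higher), DESeq2 called 14. Calls over all genes were not counted for the alternatives of CORT against Ctrl. Leaving out 1 library at a time gave 0 to 8 genes higher in stress, 3 to 5 higher and 1 to 11 lower in CORT against vehicle, 1 to 10 higher in vehicle, 0 to 7 for the interaction and 7 to 9 higher in CORT against Ctrl. Calls over all genes moved too, to 42 to 560 higher in stress and 13 to 123 higher in vehicle. They were 234 to 477 higher and 269 to 526 lower in CORT against vehicle, and 4 to 183 higher for the interaction. With a library left out, its group holds 2 libraries and the fit pools the spread. The cause of these changes was not tested, and with 3 libraries a group small differences were within the spread.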
